A study of Mus musculus with 2 samples.

Results

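Rbm3 and Cirbp, the mouse genes of the cold-inducible RNA-binding proteins, were followed across the cell types of the bone marrow of a control and of a mouse genotype with a MYC transgene. Both were taken by symbol from the 32286 features of the count matrices, each symbol matched a single feature, and the set therefore holds 2 genes. The pair was chosen by measured values: Rbm3 stood among the genes with the largest difference between the libraries in cells of the neutrophil lineage. Values from these 2 libraries are given as a description, with no test. Hematopoietic cells of the marrow were profiled by droplet-based sequencing of transcript 3′ ends, to compare their expression after MYC was overexpressed, with 1 library per genotype. Control marrow was Mx1Cre+/-;Rosa26+/+ and MYC marrow was Mx1Cre+/-;Rosa26LSL-MYC/LSL-MYC. Both carry Mx1-Cre, a recombinase whose promoter responds to interferon in many cell types, so its activity is not restricted to one lineage. In MYC marrow both Rosa26 alleles hold LSL-MYC, where Cre has to cut out a stop cassette before the transgene can be read. The labels used here state no age, sex, inducing agent or number of animals. With 1 library per group, genotype and library cannot be told apart, and every interval given covers counting error only.

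Rbm3 and Cirbp are close relatives: small proteins with an RNA recognition motif at the front and a glycine- and arginine-rich tail. Mild cooling raises both in mammalian cells, and both bind messenger RNAs and affect their processing, stability and translation. Cirbp binds transcripts of the circadian clock. When cells release its protein, it acts as an alarmin on Toll-like receptor 4 and TREM-1 of myeloid cells.

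In the GENCODE vM21 annotation of GRCm38, Rbm3 (ENSMUSG00000031167) spans chrX:8138975-8145880 on the minus strand, with 11 transcripts, 6 of them coding. Its 5′ end overlaps the antisense gene Rbm3os by 452 bases; Rbm3os had 36 UMIs in control and 43 in MYC marrow, and use of strand in the counting is not given in the sources used here. Cirbp (ENSMUSG00000045193) spans chr10:80165985-80172786 on the plus strand, with 7 transcripts, 2 of them coding, and overlaps no other annotated gene. A short element, TCCCCGCC, is known from the Cirbp promoter to mediate its response to mild cooling and to be bound by Sp1. RefSeq's promoter table (GRCm38.p6) held 2 windows for Cirbp and 1 for Rbm3os, each from 250 bases before to 50 bases after a start site. Searched on both strands, the element occurred in 5.38% of all 32851 windows of that length. It was present once in the first Cirbp window and once in the Rbm3os window, which lies in the first intron of Rbm3, and its letters were not in the second Cirbp window. The stretches printed here are the parts of those windows up to the first annotated exon inside them, shown because they hold the element at each member. Capitals mark TCCCCGCC and, in the second stretch, the E-box letters CACGTG, a sequence bound by MYC and related factors that 7.15% of all windows hold.
Cirbp, chr10:80167589-80167777, plus strand: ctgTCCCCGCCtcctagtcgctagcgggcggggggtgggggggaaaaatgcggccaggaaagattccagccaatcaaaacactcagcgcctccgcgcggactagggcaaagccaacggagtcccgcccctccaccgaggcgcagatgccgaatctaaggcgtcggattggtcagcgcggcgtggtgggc
First intron of Rbm3, before Rbm3os, chrX:8145177-8145428, plus strand: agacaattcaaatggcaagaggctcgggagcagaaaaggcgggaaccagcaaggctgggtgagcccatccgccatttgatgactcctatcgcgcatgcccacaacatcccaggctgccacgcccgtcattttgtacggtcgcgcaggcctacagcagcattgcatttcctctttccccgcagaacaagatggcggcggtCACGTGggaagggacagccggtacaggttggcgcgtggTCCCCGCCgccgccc
GC boxes (GGGCGG, either strand) were in 35.7% of all windows; the first Cirbp window held 3, the second 4 and the Rbm3os window 1. The heat shock element core GAANNTTC, in 7.86% of windows, was in none of these windows. A match of letters describes the window and shows no binding.

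The deposited matrices held 131884603 UMIs in 17073 control barcodes and 110012176 in 14496 MYC barcodes. Filters kept 14903 and 12540 cells with medians of 5343 and 6016 UMIs, and 79 barcode sequences occurred among the kept cells of both. Clusters were named from marker genes, with Rbm3 and Cirbp left out of the clustering, and each type name stands for cells that are like that type. At least 100 cells per library were found in 10 types, which are compared. Marker lists did not separate all of them cleanly. The cluster called T or NK had more T than NK markers among its leading genes. Cluster 0 of the immature neutrophils was led by 2 markers of mature neutrophils and cluster 11 of the erythroid progenitors by 2 of erythroblasts, so values of those types are also given by cluster. Shallow cells formed 3 unnamed clusters, with median UMIs at 0.131, 0.143 and 0.162 of their library's. Clusters 1 and 2 were split by library, with 300 control and 2362 MYC cells in the first and 2173 and 277 in the second, while cluster 24 held 92 and 105. The feature named MYC had 0 UMIs over 14903 control cells, which leaves room for up to 0.0201% of cells with a UMI (not of cells carrying or expressing the transgene), and had UMIs in 267 of 12540 MYC cells.

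Over all kept cells both genes were higher in MYC marrow, Rbm3 by more than 2-fold. Rbm3 stood at 326 UMIs per 1e+06 (CPM) in control and 816 in MYC marrow, a fold of 2.50 (95% counting interval 2.47 to 2.53). Cirbp stood at 27.8 and 55.4 CPM, a fold of 1.99 (1.91 to 2.08). On the log2 scale, with 1 CPM added to both sides, the ratios were 1.32 and 0.97. A gene was called where it differed by at least 1.5-fold with a counting interval, computed without the added CPM, that excludes equality. By that rule 5.05% of 14164 genes with at least 50 UMIs were called higher and 13.7% lower, that is 715 and 1934 genes. Scaling by median of ratios, which sets the median gene to 0, gave 1285 and 1144. Shares of genes called in each type are given with total UMIs as the scale; median of ratios raised the number called higher in each compared type but erythroblasts. The median gene was at -0.16, and relative to it the log2 ratio of Rbm3 was 1.48 and that of Cirbp 1.13. Without the shallow clusters the log2 ratios were 1.33 and 0.98.

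In the neutrophil lineage, the contrast that chose the pair, Rbm3 had 12597 UMIs in 6858 control cells (239 CPM) and 31034 in 5897 MYC cells (605 CPM). The log2 ratio was 1.33 (1.31 to 1.37). Cirbp had 1298 UMIs (24.7 CPM) and 2524 UMIs (49.2 CPM), a log2 ratio of 0.97 (0.90 to 1.09). Here 2.79% of 11742 genes were called higher, both members among them; nothing is read from that, since the same values chose them. Of all genes 328 were higher and 1733 lower, against 999 and 499 with median-of-ratios scaling. Ordered by log2 ratio, Rbm3 was number 4 of 1102 genes that averaged 100 CPM or more. Just above it were Wfdc17 (1.91), a secreted antiprotease-like protein, and Ifitm1 (1.80) and Ifitm2 (1.72), interferon-induced membrane proteins. Just below were AY036118 (1.26), a transcript from ribosomal RNA sequence, Lgals3 (1.22), the lectin galectin-3, and Tspo (1.14), a protein of the outer mitochondrial membrane. Cirbp averaged 36.9 CPM, too low for that ordering, and 60 of the 11742 genes had a larger log2 ratio.

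Along the neutrophil stages Rbm3 was lowest in the most mature cells of both libraries, and the libraries differed at each stage. Granulocyte progenitors, which make the primary granule proteins, had 368 CPM in control and 1018 in MYC marrow. Their log2 ratio of 1.46 was the largest of 1232 genes averaging 100 CPM or more, in a type where 3.67% of genes were called higher (366 of 9982, against 1276 with median-of-ratios scaling); these cells belong to the lineage whose values chose the pair. Immature neutrophils, which make the secondary granule proteins, had 242 and 584 CPM (1.27, with 5.52% of genes called higher). Mature neutrophils had 97.5 and 225 CPM (1.20, with 6.77% called higher). Among genes averaging 100 CPM or more Rbm3 was number 15 of 1026 in immature and number 35 of 1171 in mature neutrophils. From mature cells to progenitors the level differed 3.78-fold in control and 4.52-fold in MYC marrow, more than the libraries differed at any stage.

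Cirbp varied less with maturation. Granulocyte progenitors had 33.8 CPM in control and 80.5 in MYC marrow (log2 ratio 1.23, interval 1.09 to 1.42). Immature neutrophils had 22.2 and 41.1 CPM (0.86) and mature neutrophils 20.4 and 41.1 CPM (0.98). From mature cells to progenitors Cirbp differed 1.65-fold and 1.96-fold, while the intervals of immature and mature cells overlapped in each library.

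Both members were also measured inside single clusters of one stage. Among immature neutrophils, Rbm3 was at 110 and 261 CPM in cluster 0 (log2 ratio 1.24), at 340 and 818 in cluster 3 (1.27), and at 200 and 476 in cluster 9 (1.25). Cirbp log2 ratios there were 0.84, 0.83 and 0.93. Mature neutrophils of the 2 libraries lay in different clusters: clusters 5 and 7 held 1711 and 1281 control cells against 164 and 112, and cluster 4 held 245 against 1733. Rbm3 log2 ratios were 1.32, 1.43 and 1.36 in clusters 5, 7 and 4, and those of Cirbp 1.04, 1.52 and 1.23. In cluster 26, with 81 and 20 cells, Rbm3 had 25 and 38 UMIs (1.99, interval 1.24 to 2.79), and Cirbp was at 1.03 with an interval that spans 0.

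Outside the neutrophils Rbm3 was called higher in every type compared. Monocytes had 468 CPM in control and 1185 in MYC marrow (log2 ratio 1.34, with 6.93% of genes called higher). Rbm3 was there number 2 of 1425 genes averaging 100 CPM or more, and 35 of all 11059 genes had a larger log2 ratio. Stem and multipotent progenitor cells had 393 and 976 CPM (1.31, with 5.7% called higher). Basophils or mast cells had 385 and 1075 CPM (1.48, with 7.88% called higher), the largest log2 ratio of the 10 types with total UMIs as the scale. Its interval (1.35 to 1.62) overlapped with that of granulocyte progenitors (1.42 to 1.52). Relative to the median gene the log2 ratio was 1.66, and granulocyte progenitors were highest (1.75). Lymphocytes differed as well: T or NK cells had 294 and 730 CPM (1.31, with 7.81% called higher). Mature B cells had 302 and 644 CPM (1.09, with 4.94% called higher), the smallest log2 ratio of the 10 with total UMIs as the scale. Relative to the median gene it was 1.38, and erythroblasts were lowest (1.001). In the ordering used for monocytes, Rbm3 was number 3 of 1471 genes in basophils or mast cells and 7 of 1303 in stem and multipotent progenitor cells. It was number 9 of 1089 in T or NK cells and 42 of 1006 in mature B cells.

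In the red cell lineage Rbm3 stood at 451 CPM in control and 1116 in MYC erythroid progenitors (log2 ratio 1.30, with 12% of genes called higher). By cluster this was 1.34 in cluster 11 and 1.25 in cluster 19. In erythroid progenitors Rbm3 was number 22 of 1291 genes averaging 100 CPM or more, and in erythroblasts number 16 of 819. Erythroblasts, which make hemoglobin, had 147 and 404 CPM (1.45), a value that reached 2.73 with each library clustered on its own. There 36.8% of 4230 genes were called higher and the median gene was itself at 0.45; with median-of-ratios scaling 534 were higher and 714 lower, against 1558 and 327. Median UMIs of erythroblasts were 4245 in control and 1750 in MYC marrow, and markers of other cells moved too. There the 7 immature neutrophil markers summed to 11097 and 17206 CPM and the 8 mature neutrophil markers to 992 and 1870 CPM, with 0 of either list at 0, and the 9 erythroblast markers to 310754 and 225849 CPM. Named after their values were seen, Tyrobp, an adaptor of myeloid receptors, was at 222 and 374 CPM, the proliferation marker Mki67 at 914.5 and 1403 CPM, and Xist, the RNA that silences an X chromosome, at 498 and 1294 CPM (1.38), whereas its log2 ratio was under 0 in each of the other 9 types. The part of these and of depth in the ratio was not tested.

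Rbm3 was called higher in 10 of 10 types, as were 1.14% of the 3596 genes with at least 50 UMIs in each, and Cirbp in 9 of 10. No share of all genes is given for 9 of 10, and in erythroblasts Cirbp was under 50 UMIs. The counts of both members include the 3 neutrophil stages whose values chose the pair, and the share of genes called in each type is given above. The largest log2 ratio of Cirbp was in erythroid progenitors, at 14.4 and 40.1 CPM (1.42, interval 1.23 to 1.72), though by cluster it was 1.18 in cluster 11 and 1.55 in cluster 19. Stem and multipotent progenitor cells had 48.1 and 98.3 CPM (1.02) and basophils or mast cells 56.9 and 121 CPM (1.07). Monocytes, mature B cells and T or NK cells had log2 ratios of 0.90, 1.05 and 0.96. Erythroblasts were the exception: 18 control and 17 MYC UMIs (8.95 and 16.6 CPM) gave 0.82 with an interval from -0.16 to 1.93, so that a difference was not detectable at this depth; with each library clustered on its own it was 2.12.

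**Figure D1:**
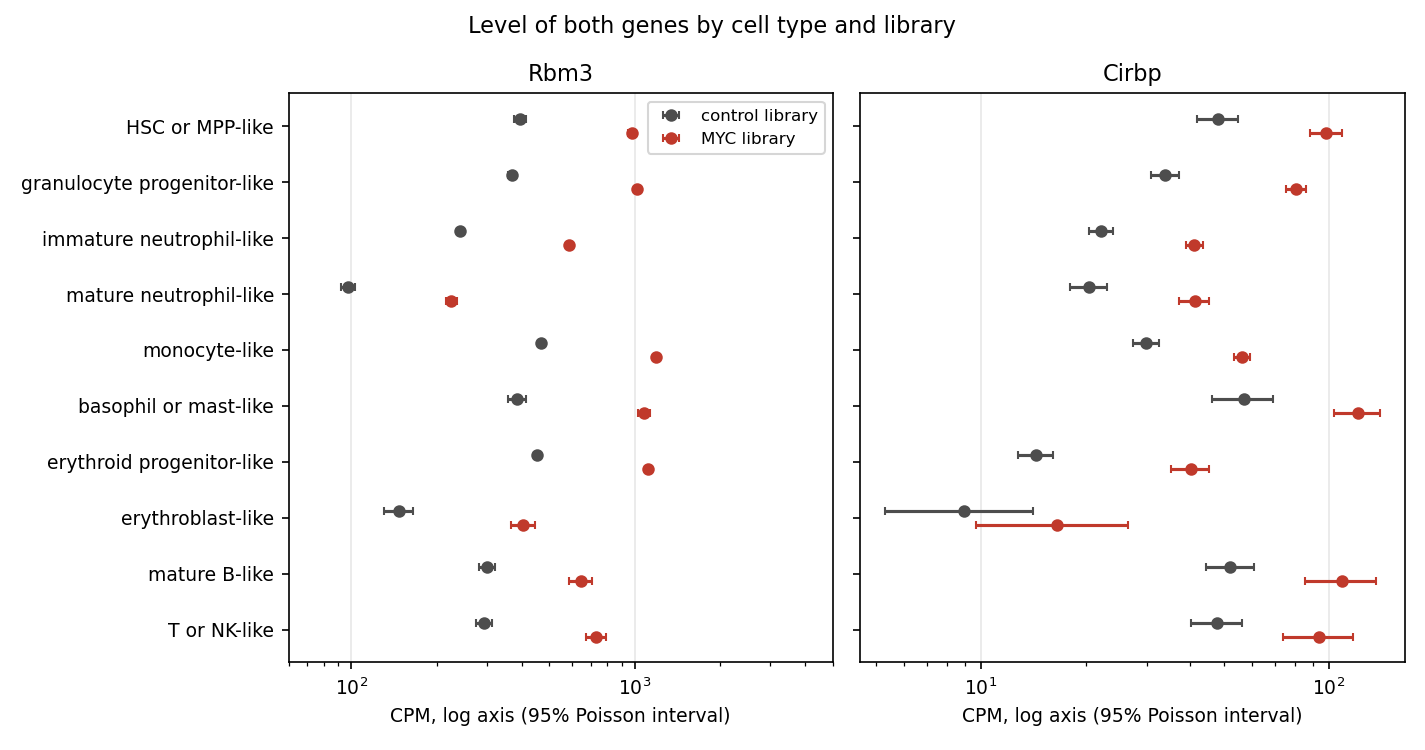
Level of Rbm3 and Cirbp in CPM (log axes) in the 10 compared cell types of the control and MYC libraries, with 95% Poisson intervals for counting error. The MYC value is the higher one in every row, and the intervals overlap for Cirbp in erythroblasts.

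Over the 10 types the log2 ratio of Rbm3 ranged from 1.09 to 1.48, with a standard deviation of 0.12, and that of Cirbp from 0.82 to 1.42, with one of 0.18. These are with total UMIs as the scale; relative to the median gene of each type Rbm3 ranged from 1.001 to 1.75 and Cirbp from 0.37 to 1.52, both lowest in erythroblasts. Pooling all B lineage cells gave a smaller value for Rbm3, 298 against 478 CPM (0.68), than its parts did. B progenitors, with the highest control level (493 CPM), were 437 of 1247 control cells but 18 of 246 MYC cells of that lineage. Plasma cells had 154 and 393 CPM and plasmacytoid dendritic cells, of which MYC marrow held 77, had 294 and 1171 CPM.

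**Figure D2:**
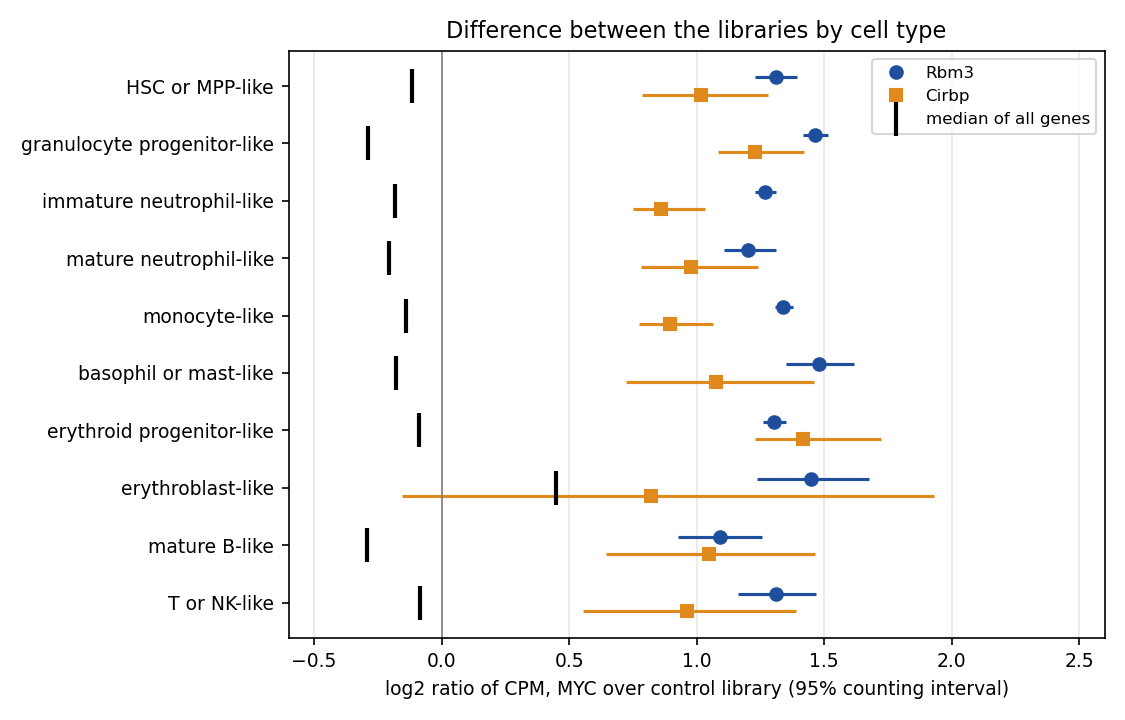
Log2 ratio of CPM (MYC over control library) of Rbm3 and Cirbp by cell type, with 95% counting intervals, and the median of all genes as black ticks. All Rbm3 and Cirbp ratios are above 0 and above the median gene of their type, and the Cirbp interval of erythroblasts spans 0.

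The order of the levels differed between the genes. Control Rbm3 was highest in B progenitors, monocytes and erythroid progenitors, neighbours with overlapping intervals, and lowest in mature neutrophils, over a 5.06-fold range of 13 types with 100 cells or more. In MYC marrow monocytes stood clear of the next type, erythroid progenitors, which overlapped with basophils or mast cells; mature neutrophils were again lowest, over a 5.26-fold range of 11 types. Control Cirbp was highest in plasmacytoid dendritic cells (64.1 CPM), basophils or mast cells and mature B cells, with overlapping intervals. It was lowest in erythroblasts and in erythroid progenitors, a type in which Rbm3 was among the highest. In MYC marrow basophils or mast cells and mature B cells (109 CPM) led for Cirbp, again with overlapping intervals, among types with 100 cells or more, and erythroblasts were lowest. Plasmacytoid dendritic cells and B progenitors were higher still (135 and 136 CPM) but came from 77 and 18 MYC cells.

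The genes can be set against each other by UMIs of Rbm3 per UMI of Cirbp, a ratio of counts at transcript ends. It was 31.4 in control erythroid progenitors and 4.77 in control mature neutrophils. The log2 ratio between libraries was larger for Rbm3 than for Cirbp in 9 of 10 types, erythroid progenitors being the exception. That count includes the neutrophil stages, where the choice by the rise of Rbm3 favours Rbm3, so nothing is read from them. Of the erythroid progenitor clusters, cluster 19 had the larger ratio for Cirbp (1.25 for Rbm3 and 1.55 for Cirbp) and cluster 11 did not (1.34 and 1.18). In 2 types the intervals of Rbm3 per Cirbp were apart, with MYC marrow higher: immature neutrophils (10.9 and 14.2) and monocytes (15.7 and 21.1). Immature neutrophils are part of the lineage that chose the pair. In 0 types was Rbm3 per Cirbp lower with intervals apart. Elsewhere the intervals of the libraries overlapped, as in mature B cells (5.79 and 5.92).

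Across all 27 clusters the Rbm3 log2 ratio was above 0 with an interval above 0, from 0.83 to 1.99 with a median of 1.35. Clusters of the neutrophil lineage, whose values chose the pair, are among the 27. The share of all genes that meet the same rule is not given for clusters. Some clusters were small in a library: cluster 14 held 20 control cells and cluster 16 held 18 MYC cells. Cirbp was above 0 in 26 of 27, with 19 intervals above 0 and 8 that span it. The cluster below 0 was the shallow cluster 2, with 71 control and 6 MYC UMIs of Cirbp (-0.75, interval -2.27 to 0.42). Rbm3 in the shallow clusters 1 and 2 had log2 ratios of 1.04 and 0.86, and Rbm3 was among the 10 leading genes of cluster 1. In the shallow cluster 24, with 25 control and 92 MYC UMIs of Rbm3, the log2 ratio was 1.81 (1.16 to 2.52). Cells were also split by their own UMI count within each type, in 29 bins with at least 20 cells per library. Rbm3 was higher in MYC marrow in 29 of 29 bins, 26 of them with an interval above 0, and Cirbp in 25 of 29, 16 of them with an interval above 0. The bins include the neutrophil stages too, and the share of all genes is not given for them. Among cells with 8000 UMIs or more, Rbm3 log2 ratios were 1.28 in the neutrophil lineage and 1.31 in monocytes.

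**Figure D3:**
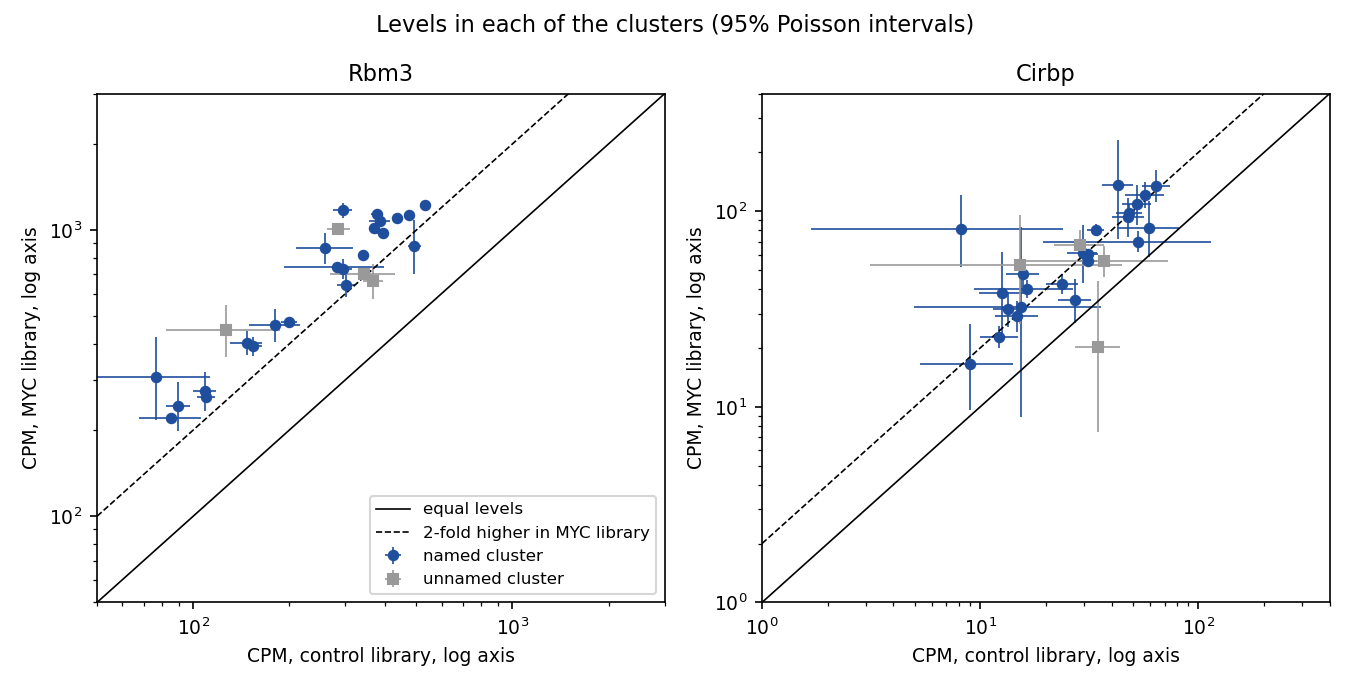
CPM of Rbm3 and Cirbp in each of the 27 clusters, control library on the x axis and MYC library on the y axis, both log axes, with a solid line for equal levels and a dashed one for 2-fold. All Rbm3 points lie above the solid line, and 1 Cirbp point, the shallow cluster 2, lies below it.

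The difference was spread over the cells of a type. Cells were thinned to 5000 UMIs each, which left out 7075 of 14903 control and 5439 of 12540 MYC cells as shallower. In granulocyte progenitors so thinned, 15.8% of 638 control cells and 0.753% of 531 MYC cells had no Rbm3 UMI, and the medians were 2 and 5 UMIs. No Rbm3 UMI was found in 40.7% of 2396 control and 16% of 2651 MYC immature neutrophils. For mature neutrophils it was 67% of 606 and 34% of 901, with 2712 control and 1128 MYC cells too shallow to enter. At least 5 were found in 8.14% of control and 61.6% of MYC monocytes. Cirbp was sparse, with none in 88.1% of the 7828 control and 78.4% of the 7101 MYC cells thinned. At 1000 UMIs per cell, which left out 2165 control and 2302 MYC cells, 21.3% and 42.7% of the rest had an Rbm3 UMI, and 2.59% and 4.74% a Cirbp UMI. Without thinning these shares were 57.5% and 74.8% for Rbm3, and 17.2% and 27.6% for Cirbp.

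No type compared lacks these genes, so none gives a background share. Free RNA was not removed, and its part in the members' values was not tested. The 7 markers of immature neutrophils, such as the granule proteins Camp and Ltf, summed to 77833 and 72764 CPM in the neutrophil lineage and to 2052 and 2650 CPM in mature B cells, with 0 of 7 at 0. In the other direction, the 8 mature B markers summed to 238 and 185 CPM in the neutrophil lineage, and the 9 erythroblast markers to 1537 and 934 CPM.

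Cells of MYC marrow with a UMI of the feature MYC did not have more Rbm3 over all types. Rbm3 was at 818 CPM in 12273 cells without such a UMI and at 764 CPM in 267 cells with one, a fold of 0.934 (0.895 to 0.975). In the neutrophil lineage the fold was 0.785 (0.728 to 0.846), with mature cells making up 97 of 182 cells with a UMI and 1932 of 5715 without. Inside immature and mature neutrophils it was 0.951 (0.863 to 1.05) and 0.926 (0.756 to 1.12), and in monocytes 0.995 (0.927 to 1.07). Erythroid progenitors with a UMI, of which there were 6, had 1.16-fold more (1.03 to 1.30). Those 6 had a median of 39861.5 UMIs per cell, against 16510.5 in the 302 without. Over all cells the medians were 7557 with and 5963 without. The part of depth in these folds was not tested. Cirbp was at 55.5 and 51.9 CPM over all cells, a fold of 0.936 (0.789 to 1.10). A cell without a UMI of so sparse a feature may still carry the recombined allele. The sequence behind the feature MYC is not given in the sources used here. The mouse gene feature Myc was at 16.7 CPM in control and 9.88 in MYC cells of the neutrophil lineage.

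Cells were also split by G2/M transcripts, at least 2 UMIs of a 20-gene list per 10000. That limit is low: 12275 of 14903 control cells passed it, and 2625 of 3318 control mature neutrophils, so passing it does not mark a cell as dividing. In the neutrophil lineage Rbm3 was 2.21-fold higher in cells above the limit in control and 2.37-fold in MYC marrow, and Cirbp 1.77-fold and 1.81-fold. Inside immature neutrophils the Rbm3 folds were 2.02 and 2.11, and inside mature neutrophils 1.10 (0.961 to 1.27) and 1.08 (0.984 to 1.18). Over all types Rbm3 was 1.95-fold and 1.79-fold higher above the limit, but Cirbp 1.02-fold (0.928 to 1.12) in control and 1.25-fold (1.16 to 1.35) in MYC marrow. In T or NK cells Cirbp was 0.707 (0.495 to 1.02) and 0.469 (0.292 to 0.761) of the level under it. Between libraries Rbm3 was at 118 and 287 CPM in neutrophil lineage cells under the limit and at 261 and 680 CPM in those above it.

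Of 3596 genes with at least 50 UMIs in each of the 10 types, 41 (1.14%) were called higher in every type and 3 lower. Rbm3 was one of the 41, and its smallest log2 ratio (1.09) exceeded the smallest of each other gene there. Next came the ribosomal protein gene Rps18, Ifitm2, the ribosomal protein genes Rpl9 and Rplp0, and Ubb, a polyubiquitin gene. Ribosomal protein genes gave 25 of the 41, out of 81 measured (30.9%), against 16 of 3515 other genes (0.455%). Beside Rbm3, Ifitm2 and Ubb, those others were AY036118, Hint1, Bax, a pro-apoptotic protein, Emc6, Atp5d, a subunit of the mitochondrial ATP synthase, Chrac1, Grpel1, Wfdc17, Aprt, Ppp1r14b, Eif3i, a subunit of a translation initiation factor, and Btf3 and Naca, which form the nascent polypeptide-associated complex. They were named after their values were seen. Cirbp, with 18 and 17 UMIs in erythroblasts, was under 50 there and so not among the 3596. With median-of-ratios scaling 22 genes were higher in every type, 12 of them among the 41, and Rbm3 was one of these.

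**Figure D4:**
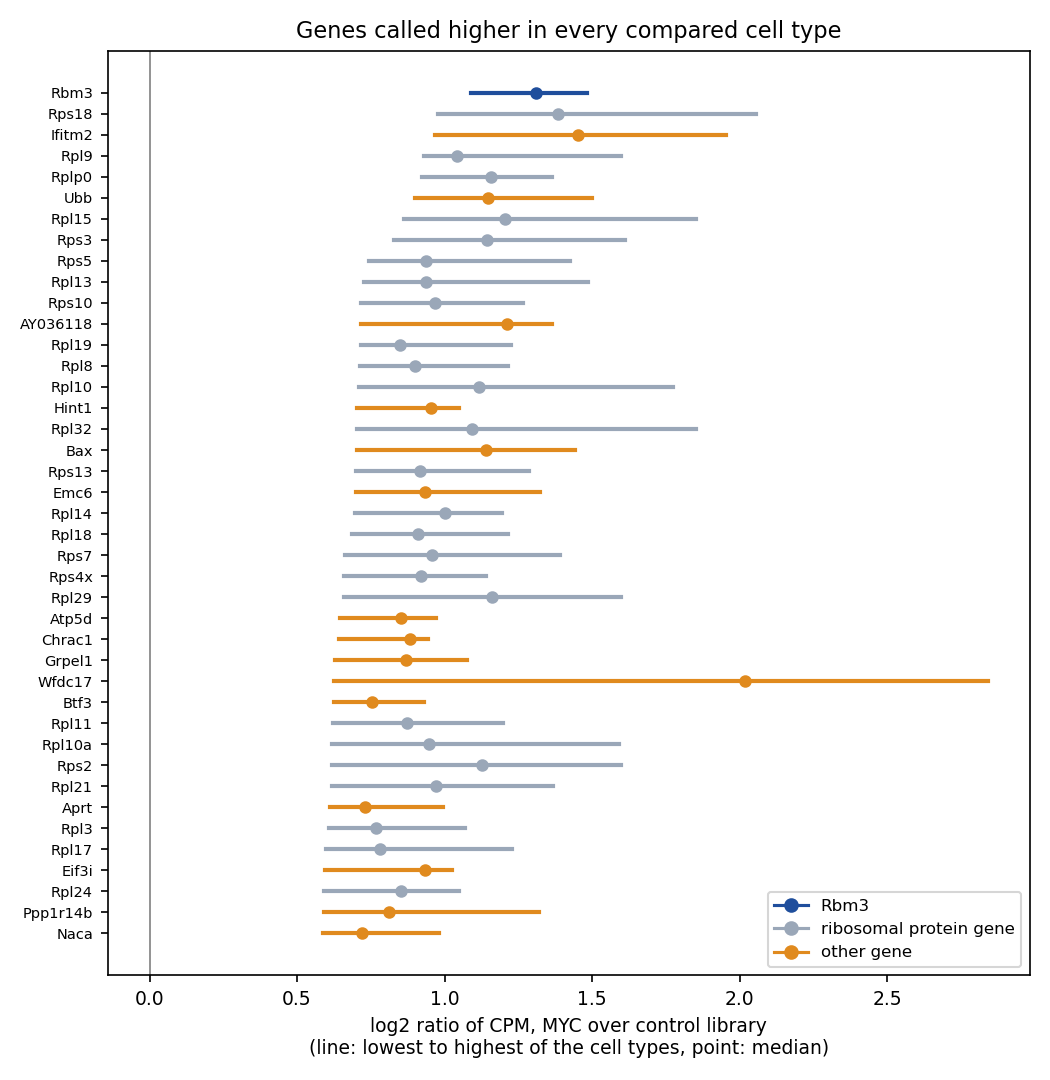
The 41 genes called higher in all 10 cell types, with a line from the lowest to the highest log2 ratio of CPM (MYC over control library) and a point at the median over types. Rbm3 is first, from 1.09 to 1.48, and Wfdc17 has the widest range.

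Levels most like those of Rbm3 were sought by Pearson correlation of log2(CPM + 1) over 20 points, 10 types in each library, among 2595 genes averaging 50 CPM or more. They were those of Psma2 (r = 0.959), a proteasome subunit, Atp5d (0.950), Rheb (0.938), a GTPase that activates mTORC1, and the ribosomal protein genes Rpl29 (0.928) and Rps3 (0.927). Within control and MYC marrow alone r was 0.976 and 0.979 for Atp5d, 0.945 and 0.946 for Psma2, 0.942 and 0.935 for Rpl29, 0.933 and 0.912 for Rps3, and 0.892 and 0.908 for Rheb, so the order differs from the pooled one. For Cirbp they were Pfdn5 (0.909), a prefoldin subunit, Cox7a2l (0.901), Use1 (0.897), Fau (0.882) and Ppp1r11 (0.875). Here too the order differs within control and MYC marrow alone. There r was 0.888 and 0.900 for Ppp1r11, 0.876 and 0.861 for Cox7a2l, and 0.856 and 0.872 for Use1. For Pfdn5 it was 0.855 and 0.910, and for Fau 0.829 and 0.877. Rbm3 and Cirbp had r = 0.669 with each other, at which Cirbp was number 561 of the 2595 genes for Rbm3. Within control and MYC marrow alone r was 0.475 and 0.511. The points share libraries, depth and free RNA, and these values are descriptions.

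Values of the neighbours on the chromosome are given for the neutrophil lineage, where 2.79% of all genes were called higher. There the measured neighbours of Rbm3 had log2 ratios from -0.50 (Wdr13, 6083 bases away) to 0.14 (Ebp, an enzyme of cholesterol synthesis), and 0 were called, from which nothing is read beside that share. Was, the Wiskott-Aldrich syndrome protein of blood cells, was at 116 and 93.1 CPM (-0.32). Beside Cirbp, Atp5d at 20167 bases was called higher, from 97.6 to 162 CPM (0.73). The nearer genes Midn (-0.51) and 1600002K03Rik (0.0061) were not called.

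Gene lists related to the members are described in the neutrophil lineage, where the median gene was at -0.24, 2.79% of genes were called higher and 14.8% lower. With shares so low, 0 higher in a short list is near the share of all genes, and nothing is read from it. Cold-shock domain proteins, another family of RNA-binding proteins, had 0 of 5 measured genes higher and 1 lower, with a median of -0.03. Ybx1, the most abundant, was at 456 and 500 CPM (0.13), and Lin28a was lower (-0.75). Relatives with RNA recognition motifs had 0 of 28 higher and 4 lower, with a median of -0.35. Hnrnpa2b1 stood at 601 and 466 CPM (-0.36) and Hnrnpd at 216 and 243 CPM (0.17). Scaling by median of ratios gave 1 higher and 1 lower of these relatives and 0 lower cold-shock domain genes. Lin28a and, in the lists that follow, other called genes that are not among the 4 most abundant of their list were named after their values were seen.

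Genes listed as upstream of the members had 0 of 9 higher and 2 lower, with a median of -0.57. The list holds factors of transcription and splicing and also others, such as Gsk3b. Sp1, which binds the element printed above, was at 59.2 and 38.9 CPM (-0.59), and the splicing factor Hnrnph1 at 126 and 76.3 CPM (-0.71). Clk1, a temperature-sensitive kinase of splicing factors, was at 117 and 78.3 CPM (-0.57), under the limit for a call. Clock genes had 0 of 11 higher and 2 lower, Per3 (-0.72) and Per2 (-0.59), with a median of -0.30. With median-of-ratios scaling 0 of either list were lower.

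Receptors and partners of extracellular Cirbp had 1 of 7 higher and 1 lower, with a median of 0.01. Cd14, a co-receptor of Toll-like receptor 4, had 289 control and 1470 MYC UMIs (5.49 and 28.6 CPM, 2.19). Il6ra, a chain of the interleukin-6 receptor, was at 73.4 and 43.7 CPM (-0.74), and was not called with median-of-ratios scaling. Trem1, itself a receptor of the released protein, was at 41.8 and 42.0 CPM (0.01), and Tyrobp, an adaptor of such receptors, at 1151 and 1576 CPM (0.45).

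Genes of stress and handling are given beside the members, and their part in the members' difference was not tested. Genes of heat shock proteins and chaperones had 0 of 14 higher and 3 lower, Hsph1 (-1.09), Hspa1b and Hspa5 (-0.59), with a median of -0.21. Among them Hsp90ab1 was at 597 and 694 CPM (0.22). Early-response genes that tissue dissociation induces had 3 of 15 higher and 1 lower, with a median of 0.26. The higher ones were Egr1, from 32.0 to 84.4 CPM (1.37), Fosb (0.87) and Nr4a1 (0.84), and Atf3 had 77 control and 32 MYC UMIs. With median-of-ratios scaling 6 of that list were higher. Hypoxia genes had 1 of 11 higher, Ankrd37 with 25 and 183 UMIs, and 1 lower, Ndrg1 (-1.03). Stress granule and poly(A)-binding genes had 0 of 12 higher and 1 lower, Ddx3x (-0.77), with a median of -0.35.

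Lists of proliferation and ribosomal genes close the set, to be read against the same 2.79% and 14.8%. S-phase genes had 0 of 20 higher and 8 lower, with a median of -0.53, and G2/M genes 0 of 20 higher and 1 lower (Mki67, -0.60), with a median of -0.13 and Ube2c, a ubiquitin-conjugating enzyme of mitosis, at 205 and 261 CPM (0.34). Scaling by median of ratios left 1 higher and 1 lower of the S-phase list and 1 higher and 0 lower of the G2/M list. Ribosomal protein genes had 37 of 83 higher and 0 lower, with a median of 0.53. Over the 10 types, the median of the ribosomal list lay between 0.44 and 1.03 and above the median gene in 10. A list median above the median gene was also found in 9 types for the early-response, heat shock and hypoxia lists. It was found in 8 for receptors of extracellular Cirbp, and in 6 for cold-shock domain and G2/M genes. It held in 2 types for relatives with RNA recognition motifs and in 1 each for upstream factors, stress granule genes and S-phase genes. Clock genes were above the median gene in 3 of 9 types. A median above 0 was found in 9 types for early-response genes, in 8 for hypoxia genes and in 5 for heat shock genes. Heat shock genes had more called lower than higher in 7 types, and more called higher in 1.

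**Figure D5:**
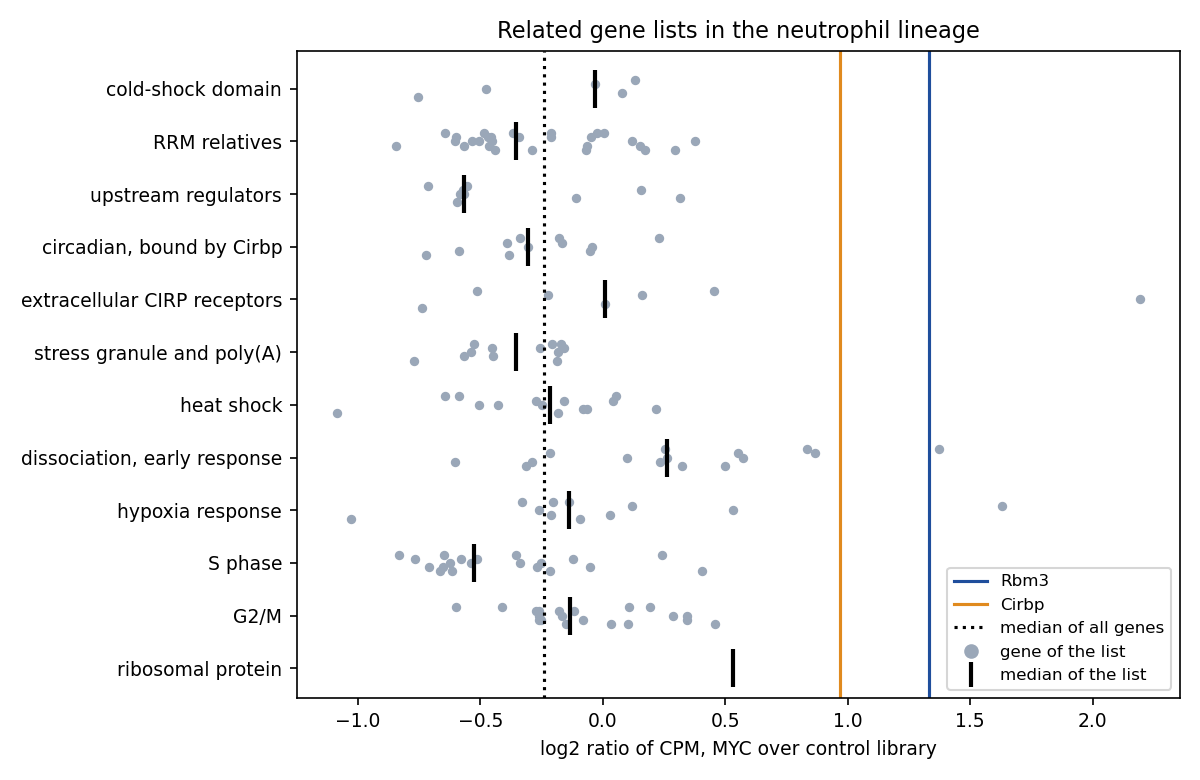
Log2 ratios of CPM (MYC over control library) of the genes of each list in the neutrophil lineage, with the list median as a black bar (for ribosomal protein genes the median alone), the members as vertical lines and the median of all genes dotted. Of the genes plotted, Cd14, Ankrd37 and Egr1 lie beyond the line of Rbm3 at 1.33.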

How the data were processed

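Per the labels, libraries were made with a 3′ droplet kit (v2); the same text also names a kit for bulk RNA isolation. Per the file headers, the UMI counts were made with cellranger 6.0.0 and are used as deposited by the authors, with no normalization; the submitters' processing notes name Cell Ranger 6.0, Seurat and the builds GRCm38 and mm10. Cells with at least 500 UMIs, 200 genes and under 10% mitochondrial UMIs were kept. Scrublet (scanpy 1.11.5) called 0 doublets in the MYC library at its automatic threshold, so the control's was used for both, removing 3.61% and 2.76% of cells. Both libraries were clustered together (2000 variable genes, 30 components, 15 neighbours, leidenalg 0.10.2, resolution 1, seed 0) without the members, the listed genes, ribosomal, mitochondrial, immunoglobulin and T cell receptor genes. Names went by the mean standardized score of the markers; ties and clusters under 0.2 of their library's median UMIs stayed unnamed. That last limit, the shared doublet threshold, the split by cell depth, the single clusters and thinning to 5000 UMIs were chosen after seeing the data.

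Counts were summed per library and type and divided by the total (CPM). Intervals are 95%: Poisson for levels, exact conditional binomial for ratios (scipy 1.17.1). PCR duplicates are collapsed by UMI, so intervals cover counting of molecules only. With 1 library per group there is no test and no p-value. The members and all lists were chosen with earlier results of these data known. Genes are named by rule: the members, at most 4 most abundant genes per list, the 5 with the most similar levels, the 3 on either side in the order of ratios, and 3 chromosomal neighbours on each side; others were named after their values were seen, as marked in the text. Of the features, 99.6% matched the annotation. The called genes among the relatives with RNA recognition motifs are not reported here by name.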

Additional observations from a re-analysis of the deposited data

How the results depend on the processing

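Both genes were above 0 on the log2 scale under every alternative that gave a value, in all types; none reversed. Over all kept cells Rbm3 (1.32) was 1.48 with median-of-ratios scaling, 1.41 without ribosomal protein genes in the denominator, 1.23 without the 20 most abundant genes, 1.27 as a mean over cells, 1.30 with a pseudocount of 10 CPM and 1.41 with mitochondrial shares under 5%. In the neutrophil lineage Rbm3 (1.33) was 1.57 with median-of-ratios scaling, 1.38 without ribosomal protein genes, 1.30 with the pseudocount of 10, 1.41 with the mitochondrial limit and 1.38 at Leiden resolution 2. Cirbp over all kept cells (0.97) was 1.13 with median-of-ratios scaling, 1.06 without ribosomal protein genes, 0.89 without the 20 most abundant genes, 0.78 as a mean over cells and 0.79 with the pseudocount of 10. In the neutrophil lineage Cirbp (0.97) was 1.21 with median-of-ratios scaling and 0.77 with the pseudocount of 10. Erythroblasts moved most: Rbm3 reached 2.73 and Cirbp 2.12 with each library clustered on its own, and Cirbp was 0.37 with median-of-ratios scaling; the cause was not tested. For the stem and multipotent progenitor cells, Leiden resolution 0.5 and separate clustering of the libraries gave no value. Depth limits what can be said of Cirbp in erythroblasts, which had 18 and 17 of its UMIs. No paired analysis was possible because each group has 1 library, and no replicate could be left out.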
